A study of Arabidopsis thaliana with 24 samples.

Results

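Shoots of Arabidopsis thaliana labelled phr1 phl1 were set against wild type (WT) shoots, both starved of phosphate (Pi). The comparison consisted of the 3 arrays whose titles name phr1 phl1 shoots without Pi and the 3 whose titles name WT shoots without Pi, 6 of the 24 arrays in the series. All plants had the Columbia background and grew 7 days on solid Johnson medium with 2% sucrose, where −Pi medium had no added Pi and +Pi medium held 2 mM. The mutant plants carried a phr1 mutation and the T-DNA allele phl1 of the SAIL collection, a single line, and the controls carried neither. The other 18 arrays were shoots and roots of phr1 at −Pi and of WT at +Pi, and roots of phr1 phl1 and WT at −Pi, in groups of 3. Neither mutant had arrays at +Pi and none of the arrays was of the phl1 single mutant, so an effect of the genotype that does not need starvation cannot be told apart here from one that does. Each array read a separate RNA sample on the Affymetrix ATH1 array. The authors summarised each array with RMA as 1 log2 signal per probe set.

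PHR1 and PHL1 are MYB-CC transcription factors that bind a short imperfect palindrome in promoters and switch on genes for Pi uptake, Pi scavenging and the replacement of phospholipids when Pi runs short. Starved shoots are known for building up starch and anthocyanin, for exchanging phospholipids for galactolipids and sulpholipids, and for slowing growth and chlorophyll synthesis. The comparison asks how transcript signals of starved shoots differ between phr1 phl1 and WT. It does not show which changes starvation itself makes in the mutant.

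PHL1 itself was read first. Its probe set had a signal of 7.64, 8.36 and 7.06 in the shoots labelled phr1 phl1 and 5.05, 4.34 and 5.50 in WT shoots. The groups did not overlap, and the signal was higher, not lower, in the arrays labelled with the mutation (log2 fold change 2.72, SE 0.298, adjusted p = 4.04e-07 from limma). The probe set was also higher in phr1 phl1 roots than in WT roots (3.51, adjusted p = 5.36e-08). In starved phr1 shoots it differed little from WT (0.05, adjusted p = 0.941). The paper states that the insertion interrupts the coding part of the PHL1 mRNA. It also examined PHL1 RNA in phl1 by RT-PCR with primers on both sides of the insertion. The position of the array probes with respect to the T-DNA could not be established here. This signal therefore checks neither the label nor the loss of the protein, and phr1 phl1 below stands for that label. No probe set was matched to PHR1. Of the other MYB-CC genes measured, AT3G24120 had 7.53, 7.91 and 7.81 in phr1 phl1 and 6.64, 6.90 and 6.73 in WT, with no overlap. Its fold change of 0.99 (SE 0.179, adjusted p = 1.56e-04) lay just under the limit of 1, and it was 1.06 (adjusted p = 3.22e-04) without WT replicate 2. AT5G06800, AT2G20400 and MYR2 had overlapping groups and fold changes of −0.25, 0.28 and 0.18.

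The medians of the 24 arrays lay between 5.12 and 5.40, and arrays of 1 group correlated at 0.968 to 0.994 when each was averaged against its replicates. WT replicate 2 of the starved shoots stood apart, with a median of 5.12 against 5.29 and 5.31 in its other 2 replicates. In phr1 phl1 shoots replicate 3 was the low one, with 5.18 against 5.27 and 5.27. Deviations of these 2 low arrays from their group means correlated at 0.62. Fold changes given below without WT replicate 2 keep phr1 phl1 replicate 3, and what the 2 arrays share was not tested. The 3′ minus 5′ signal of GAPDH, a measure of how complete the labelled RNA was, was 1.14 to 1.59 in phr1 phl1 shoots and 0.72 to 1.07 in WT shoots, while that of actin was 3.19 to 3.50 in phr1 phl1 shoots and 3.34 to 3.63 in WT shoots. The part of this difference in the results was not tested. Of 8 shoot markers 4 were measured (RCA, PSAN, PSAE-1 and PRK), and their summed signal was 47.9 to 48.3 in phr1 phl1 and 47.5 to 48.1 in WT. Of 8 root markers 2 were measured (PYK10 and EXPA7), with sums of 15.3 to 15.8 in phr1 phl1 shoots, 15.8 to 16.8 in WT shoots and 20.0 to 20.7 in WT roots. None of these 6 passed the test between the shoot groups, and none of the 6 seed markers had a matched probe set. Here and below a gene counts as measured only where a probe set was matched to it alone. Of the 22746 probe sets tested 8040 stayed unnamed, so a gene not measured here may have values among them.

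In all, 1875 of 22746 probe sets were higher in phr1 phl1 shoots than in WT shoots (8.24%) and 1866 were lower (8.2%), where a call needed over 2-fold and an adjusted p below 0.05. The falls reached further than the rises. More than 4-fold changes numbered 278 higher (1.22%) and 636 lower (2.8%), and more than 16-fold changes 8 higher (0.0352%) and 93 lower (0.409%). The median over all probe sets was 0.03, and the median standard error of a fold change was 0.158. All 3 phr1 phl1 arrays lay above all 3 WT arrays in 5215 probe sets (22.9%) and below them in 4230 (18.6%). The groups were apart in this way in 1812 of the 1875 called higher and 1828 of the 1866 called lower. A lack of overlap in a called gene is therefore the usual case. Of the probe sets called, 1100 of the higher and 932 of the lower were matched to 1 gene and could be named. The largest rise of any probe set, 6.0, belonged to one without a matched name.

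**Figure D1:**
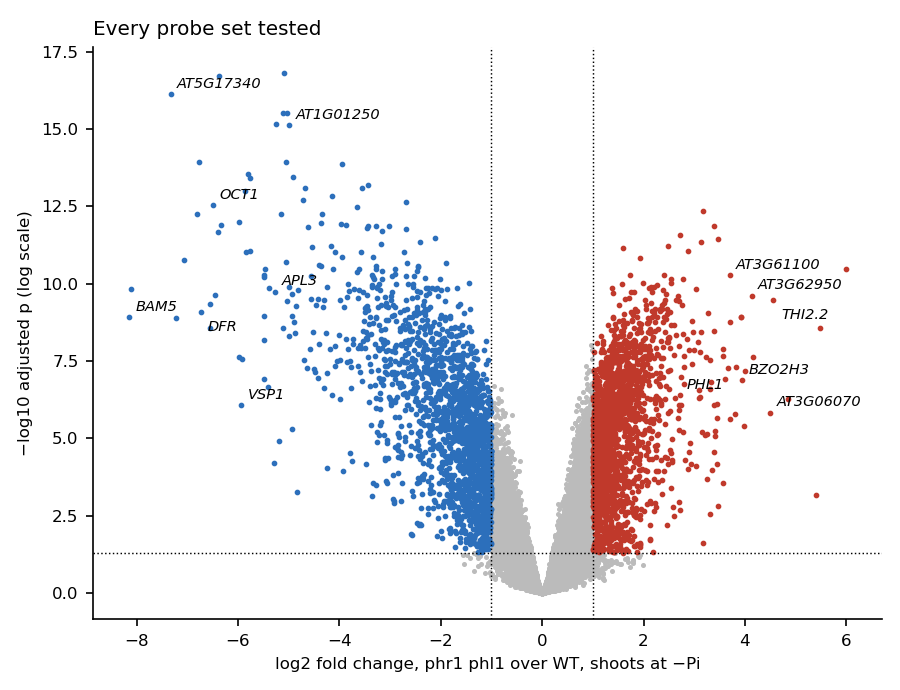
Each point is 1 of the 22746 probe sets, with the log2 fold change of phr1 phl1 over WT in starved shoots on the x axis and −log10 of limma's adjusted p on the y axis. Red points were called higher (1875) and blue points lower (1866), dotted lines mark the thresholds, and the falls extend to −8.15 where the rises end at 6.0.

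BAM5, which encodes a beta-amylase, showed the largest fall. Its signal was 3.51, 3.24 and 3.18 in phr1 phl1 and 11.68, 10.97 and 11.73 in WT, a fold change of −8.15 (SE 0.574, adjusted p = 1.21e-09). AT5G17340 had 3.36, 3.39 and 3.41 in phr1 phl1 and 10.70, 10.98 and 10.47 in WT (−7.33, SE 0.165). Signals near 3 are among the lowest on these arrays, so the size of such a fall is limited by the floor of the array. DFR, the dihydroflavonol reductase of anthocyanin synthesis, had 3.38, 3.6 and 3.26 in phr1 phl1 and 10.32, 9.70 and 10.38 in WT (−6.72, SE 0.459, adjusted p = 8.11e-10). OCT1, an organic cation and carnitine transporter gene, had 3.92, 3.21 and 3.45 in phr1 phl1 and 9.81, 10.06 and 10.18 in WT (−6.49, SE 0.252). The 12 largest falls, and the 12 largest rises below, were chosen among called probe sets of named genes whose groups do not overlap. Separation of the groups in them therefore follows from the choice. In bulk shoots a smaller share of the cells that express a gene cannot be told apart from less RNA per cell.

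The other 8 of the 12 largest falls ran from −6.46 to −5.49. AT4G17470, of the palmitoyl protein thioesterase family, had 3.43, 3.80 and 3.56 in phr1 phl1 and 10.58, 9.06 and 10.53 in WT. VSP1, which encodes a vegetative storage protein that jasmonate induces, had 5.92, 7.49 and 6.34 in phr1 phl1 and 12.73, 12.23 and 12.59 in WT (−5.93, SE 0.688). VSP1 kept a signal well above the floor in phr1 phl1, and its probe set is of a kind that can also bind RNA of a related gene. EXLB1, an expansin-like gene of the cell wall, had 4.35, 4.52 and 4.6 in phr1 phl1 and 10.29, 10.45 and 10.26 in WT (−5.84, SE 0.288). TBL26, of the TRICHOME BIREFRINGENCE-LIKE family, had 4.54, 4.79 and 4.48 in phr1 phl1 and 10.31, 9.67 and 10.32 in WT. The anthocyanin glucosyltransferase gene AT4G14090 and AT4G02360, AT1G54020 and AT1G80130 completed the set, with fold changes of −5.99, −5.81, −5.77 and −5.49.

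Thionins and defensins are small cysteine-rich antimicrobial peptides, and 1 gene of each kind was among the 12 largest rises. THI2.2, a thionin gene, lay between 9.94 and 10.04 in the 3 phr1 phl1 arrays and had 5.28, 5.47 and 5.59 in WT, the largest rise of a named gene (4.55, SE 0.291, adjusted p = 3.37e-10). PDF1.4, a plant defensin gene, had 7.74, 8.83 and 8.26 in phr1 phl1 and 4.38, 4.88 and 4.12 in WT (3.82, SE 0.356, adjusted p = 4.97e-08). The groups were apart in both, which the choice of the 12 required. THI2.1, the thionin gene that jasmonate induces, went the other way, with 3.6, 3.69 and 3.85 in phr1 phl1 and 4.57, 4.87 and 5.63 in WT (−1.31, SE 0.180, adjusted p = 6.96e-06).

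Glutaredoxins, small redox proteins that use glutathione, supplied 4 of the 12 largest rises. AT4G15700 had 7.52, 7.20 and 6.79 in phr1 phl1 and 3.08, 2.87 and 3.08 in WT (4.16, SE 0.365, adjusted p = 2.28e-08). AT3G62950 had 7.69, 7.21 and 6.95 in phr1 phl1 and 3.19, 3.31 and 2.96 in WT (4.13, SE 0.258). AT4G15690 had 8.70, 8.85 and 7.95 in phr1 phl1 and 4.66, 4.28 and 4.77 in WT (3.93, SE 0.276). Every mutant array of these genes lay above every WT array, which the choice of the 12 required. AT4G15680 had 9.73, 10.33 and 8.67 in phr1 phl1 and 5.79, 5.80 and 6.0 in WT (3.72, SE 0.269). AT4G15680, AT4G15690 and AT4G15700 are neighbours of one family, and how far their probe sets bind each other's RNA was not tested. The glutaredoxin gene GRX480, which links salicylate to jasmonate responses, was lower, with 4.6, 4.53 and 4.71 in phr1 phl1 and 7.72, 7.68 and 7.71 in WT (−3.09, SE 0.221, adjusted p = 1.52e-09).

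Among the regulators with large rises, BZO2H3 (bZIP63), a basic leucine zipper factor known from the response of plants to low energy, had 9.0, 8.47 and 8.0 in phr1 phl1 and 4.72, 4.6 and 4.31 in WT (3.95, SE 0.397, adjusted p = 1.32e-07). RR16 (ARR16), a type-A response regulator that cytokinin induces, had 6.88, 7.21 and 6.57 in phr1 phl1 and 3.36, 3.21 and 3.29 in WT (3.6, SE 0.359, adjusted p = 1.17e-07). Both were apart between the groups, again by the choice of the 12. The remaining 4 of the 12 were AT3G06070 (4.50), AT5G62360 (3.98), AT3G61100 (3.70) and AT2G21640 (3.46), for which the names used here give no function.

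**Figure D2:**
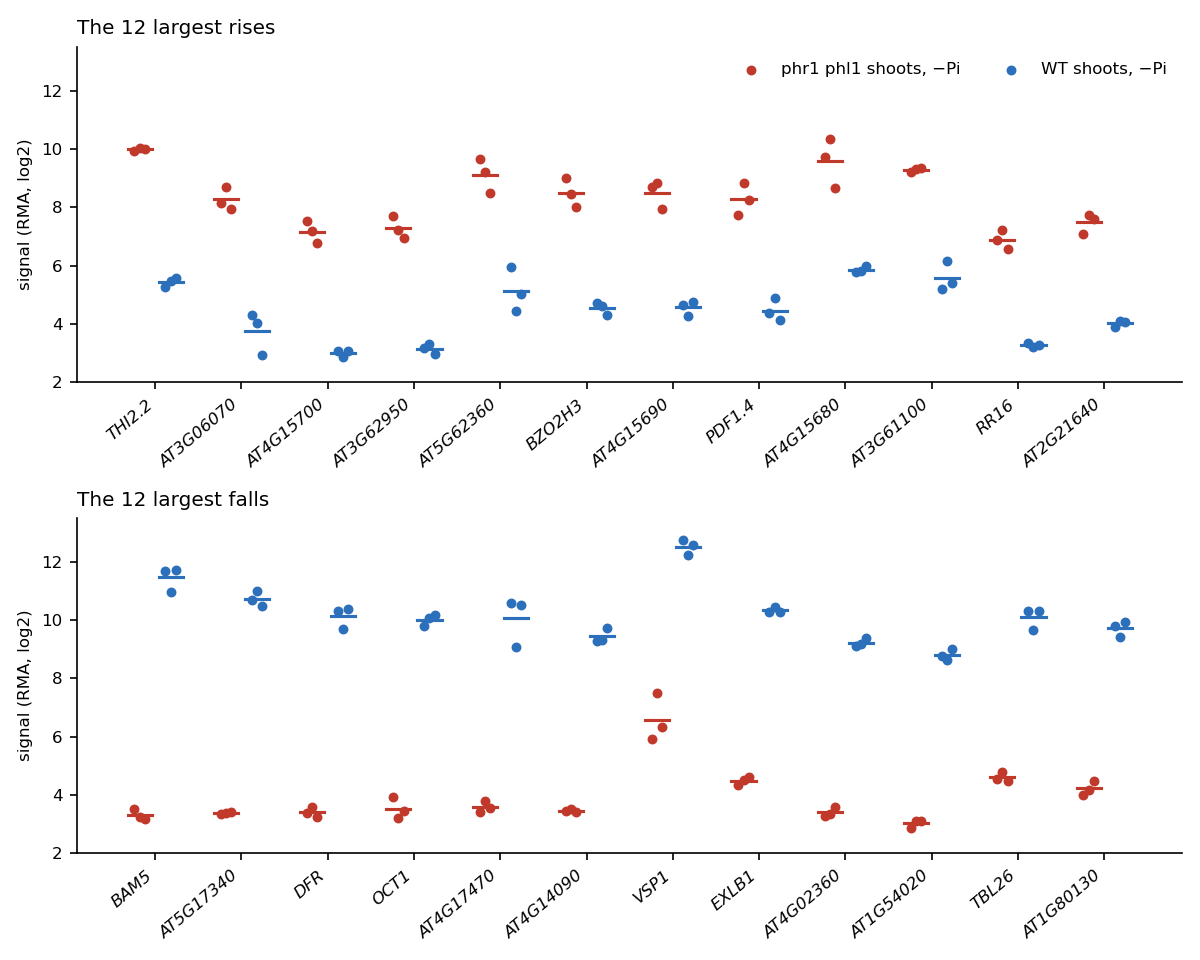
RMA log2 signal of every array for the 12 largest rises and the 12 largest falls among named genes whose groups do not overlap, with phr1 phl1 shoots at −Pi (red) left of WT shoots at −Pi (blue), points for arrays and bars for the mean of 3. In each panel the 3 arrays of one group lie clear of the other 3, and among the falls the highest mutant mean, 6.58 for VSP1, stays below the lowest WT mean, 8.81 for AT1G54020.

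Genes were then read by function in 30 lists written from general knowledge, with earlier results of these data known. Of 562 listed genes 121 were measured by a probe set matched to that gene alone, and of these 17 were higher and 36 lower. Over all probe sets 8.24% were higher and 8.2% lower, but lists chosen this way cannot test an excess over those shares. The median over all probe sets was 0.03, and no list was tested as a whole.

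Of 24 listed genes of phenylpropanoid and anthocyanin synthesis 7 were measured, 5 were lower and 0 higher, with a median of −5.12. UF3GT, a flavonoid glycosyltransferase gene, had 4.36, 4.48 and 4.68 in phr1 phl1 and 9.87, 9.72 and 10.39 in WT (−5.49, SE 0.383, adjusted p = 1.09e-09). PAP1 (MYB75), the MYB factor that switches on anthocyanin synthesis, had 3.45, 3.69 and 3.50 in phr1 phl1 and 8.11, 8.64 and 9.24 in WT (−5.12, SE 0.383). The 5 that were lower were these 2, DFR, AT4G14090 and UGT78D2 (−2.91, SE 0.290), the last named after its value was seen. The other 2 measured did not pass. PAL3, a phenylalanine ammonia-lyase gene, had 5.55, 4.88 and 5.12 in phr1 phl1 and 5.09, 5.58 and 4.97 in WT (−0.03, adjusted p = 0.918), and MYB12, a regulator of flavonol synthesis, had a fold change of −0.57 (adjusted p = 0.0916), with overlapping groups in each.

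Of 31 listed genes of starch and sugar metabolism 10 were measured and 5 were lower, none higher, with a median of −0.95. APL3 and APL4 encode large subunits of ADP-glucose pyrophosphorylase, the enzyme that commits glucose to starch. APL3 had 4.49, 4.40 and 4.33 in phr1 phl1 and 9.99, 8.98 and 10.05 in WT (−5.26, SE 0.321, adjusted p = 1.79e-10). APL4 had 3.25, 3.22 and 2.81 in phr1 phl1 and 6.95, 5.24 and 7.29 in WT (−3.4, SE 0.353). WT replicate 2 was the lowest WT array in both, and without it the fold changes were −5.61 and −4.03. DPE2, a glucanotransferase that handles the maltose set free from starch, had 9.04, 9.28 and 8.50 in phr1 phl1 and 11.11, 10.32 and 11.08 in WT (−1.90, SE 0.254). BAM5 and the starch branching enzyme gene SBE2.2 (−1.28, SE 0.312, adjusted p = 2.60e-03), named after its value was seen, were the other 2. CT-BMY (BAM3), the chloroplast beta-amylase gene, did not pass, with 8.61, 9.05 and 6.91 in phr1 phl1 and 9.35, 7.87 and 9.20 in WT (−0.62, SE 0.471), and neither did DPE1 (−0.09, SE 0.141).

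Of 29 listed jasmonate genes 6 were measured, of which 4 were lower and 0 higher at more than 2-fold, with a median of −2.83. JRG21, named as a jasmonate-regulated gene, had 3.80, 4.59 and 4.13 in phr1 phl1 and 8.79, 9.06 and 9.10 in WT (−4.81, SE 0.291). JMT, which makes the methyl ester of jasmonate, had 3.09, 3.05 and 3.08 in phr1 phl1 and 7.64, 6.80 and 7.80 in WT (−4.34, SE 0.176, adjusted p = 5.42e-13). VSP1 and THI2.1 were the other 2. PDF1.2, a defensin gene that needs ethylene as well as jasmonate, had 4.71, 4.66 and 4.90 in phr1 phl1 and 4.02, 4.36 and 4.12 in WT, with no overlap (0.59, adjusted p = 0.0216), and ACX1, an acyl-CoA oxidase gene of jasmonate synthesis, had a fold change of −0.85 (adjusted p = 9.69e-04), both within 2-fold.

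All 5 measured genes of 18 on the sulphur assimilation list were lower in phr1 phl1, with a median of −1.49. APS3, the ATP sulphurylase gene that activates sulphate, had 5.91, 5.66 and 6.26 in phr1 phl1 and 8.42, 7.78 and 8.17 in WT (−2.18, SE 0.205, adjusted p = 5.61e-08). SULTR3;1, a sulphate transporter gene, had 3.39, 3.42 and 3.89 in phr1 phl1 and 4.51, 5.18 and 4.99 in WT (−1.32, SE 0.196). SIR, the sulphite reductase gene, named after its value was seen, had 9.01, 8.56 and 9.07 in phr1 phl1 and 10.13, 10.07 and 9.98 in WT (−1.18, SE 0.169). The groups did not overlap in these 3 steps of the same route, as in 1828 of the 1866 probe sets called lower. AT5G26220, a gamma-glutamyl cyclotransferase gene that breaks down glutathione, had 3.51, 3.79 and 4.15 in phr1 phl1 and 5.86, 5.62 and 6.49 in WT (−2.18, SE 0.328). AT1G04770 had 4.2, 4.07 and 4.39 in phr1 phl1 and 5.80, 4.63 and 6.70 in WT (−1.49, SE 0.364), and its call was lost when the 6 arrays were fitted alone or WT replicate 3 was left out.

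Glucosinolates are the sulphur-rich defence compounds of this plant family, and of 23 listed genes 4 were measured and 2 were lower. UGT74B1, the glucosyltransferase of glucosinolate synthesis, had 7.00, 6.88 and 6.98 in phr1 phl1 and 9.31, 8.89 and 9.37 in WT (−2.24, SE 0.236, adjusted p = 2.52e-07). BCAT4, the aminotransferase that starts the lengthening of methionine, had 9.11, 9.31 and 9.19 in phr1 phl1 and 11.20, 11.15 and 11.37 in WT (−2.04, SE 0.298). In TGG2, a myrosinase gene for their breakdown, and AT2G31790 the groups overlapped, with fold changes of 0.02 and −0.39.

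Of 24 listed genes of abscisic acid, drought and cold 4 were measured, 2 lower and 1 higher. COR15A and COR15B encode cold-induced proteins that protect chloroplast membranes. COR15A had 5.2, 5.24 and 5.21 in phr1 phl1 and 10.27, 9.95 and 10.05 in WT (−4.87, SE 0.375, adjusted p = 3.93e-09). COR15B had 6.07, 5.96 and 4.95 in phr1 phl1 and 8.66, 8.69 and 8.76 in WT (−3.04, SE 0.258). These 2 were fully apart, but COR47, a dehydrin gene of the same response, was not, with 9.39, 9.14 and 8.13 in phr1 phl1 and 8.65, 7.26 and 8.42 in WT (0.77, SE 0.446). HIS1-3, a linker histone gene that drought induces, was the one that rose, with 8.43, 8.83 and 8.16 in phr1 phl1 and 6.47, 5.84 and 6.73 in WT (2.13, SE 0.273).

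The low-energy list holds genes that darkness and sugar shortage induce, and of 15 listed 5 were measured, 4 were higher and none lower, with a median of 2.46. DIN10, a dark-inducible gene of the raffinose synthase family, had 11.72, 11.56 and 11.42 in phr1 phl1 and 9.22, 8.46 and 6.80 in WT (3.4, SE 0.460, adjusted p = 5.65e-06). ICL, the isocitrate lyase of the glyoxylate cycle, had 9.13, 9.02 and 10.31 in phr1 phl1 and 6.58, 6.2 and 6.57 in WT (3.04, SE 0.513). AKINBETA1, a subunit gene of the energy-sensing kinase SnRK1, had 8.77, 9.20 and 8.91 in phr1 phl1 and 6.44, 7.11 and 5.95 in WT (2.46, SE 0.395). No array crossed between the groups in these 3 genes, as in 1812 of the 1875 probe sets called higher, although WT arrays of DIN10 were widely spread. MCCA, for a carboxylase subunit of leucine breakdown, had 7.91, 8.0 and 7.11 in phr1 phl1 and 6.08, 5.59 and 5.96 in WT (1.80, SE 0.343). IVD, a dehydrogenase gene of the same route, had overlapping groups (7.37, 7.33 and 6.07 in phr1 phl1, 6.41, 5.67 and 6.29 in WT) and a fold change of 0.80 (adjusted p = 0.0269).

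Photorespiration recycles the product of oxygen fixation by Rubisco, and all 5 measured genes of 15 listed passed the adjusted p in the upward direction, 3 of them by more than 2-fold, with a median of 1.04. By the adjusted p alone 20.6% of all probe sets were higher. GLU1, the ferredoxin-dependent glutamate synthase gene, had 10.52, 10.84 and 10.23 in phr1 phl1 and 9.40, 8.71 and 9.53 in WT (1.32, SE 0.217, adjusted p = 5.67e-05). HPR, the peroxisomal hydroxypyruvate reductase gene, had 12.21, 12.10 and 12.26 in phr1 phl1 and 11.02, 11.29 and 11.15 in WT (1.04, SE 0.160), and it fell within 2-fold without WT replicate 1. The third was AT1G80380 (1.17, SE 0.125), and LrgB (PLGG1), a glycolate and glycerate transporter gene of the chloroplast, and AT1G11860 had 0.72 and 0.61. In none of the 5 did the groups overlap, and all 3 phr1 phl1 arrays lay above all 3 WT arrays in 22.9% of all probe sets.

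The other chloroplast lists moved less. Of 10 measured genes of 21 for tetrapyrrole synthesis, the route to chlorophyll, 7 were higher by the adjusted p alone but only 1 by more than 2-fold, with a median of 0.77. The count past 2-fold was 2 to 4 when WT replicate 1, WT replicate 3, phr1 phl1 replicate 2 or phr1 phl1 replicate 3 was left out. That one was CHLM, the magnesium protoporphyrin methyltransferase gene, with 10.48, 10.72 and 10.68 in phr1 phl1 and 9.34, 9.39 and 9.52 in WT (1.21, SE 0.135). GSA1 and HEMB1, for earlier steps, had 0.53 and 0.67. Of 6 measured genes of 32 for the light reactions none passed by more than 2-fold, 1 was lower by the adjusted p alone (LHCB4.3, −0.76, adjusted p = 0.0198), and the median was −0.29. Of 3 measured Calvin cycle genes of 15, SBPASE, for sedoheptulose bisphosphatase, was higher, with 11.50, 11.56 and 11.24 in phr1 phl1 and 10.27, 9.96 and 10.32 in WT (1.25, SE 0.249), while RCA and PRK had 0.33 and 0.10.

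Few genes of Pi economy itself had a matched probe set. Of 33 listed for Pi transport and SPX signalling 3 were measured. SPX1, whose protein holds PHR1 inactive when Pi is plentiful, had 9.45, 9.62 and 8.79 in phr1 phl1 and 11.49, 10.58 and 11.61 in WT (−1.94, SE 0.296, adjusted p = 2.50e-05). G3Pp4, a glycerol-3-phosphate permease gene, had 5.73, 5.51 and 5.89 in phr1 phl1 and 6.51, 6.88 and 7.00 in WT (−1.08, SE 0.224), and its call was lost with array weights and without WT replicate 3 or phr1 phl1 replicate 2. PHT4;5, a plastid Pi transporter gene, was higher, with 8.52, 8.39 and 8.83 in phr1 phl1 and 7.26, 7.77 and 7.31 in WT (1.14, SE 0.214). All 3 genes had groups without overlap, as had most called probe sets (1812 of 1875 higher, 1828 of 1866 lower). MGD2, the galactolipid synthase gene of membrane remodelling, had 7.11, 6.87 and 7.26 in phr1 phl1 and 10.31, 10.48 and 10.29 in WT (−3.28, SE 0.173, adjusted p = 2.75e-11). It was the 1 gene of 3 measured on the 28-gene lipid list that was called. PMEAMT, for a phosphoethanolamine methyltransferase, had −0.98 and reached −1.32 without WT replicate 2 (its 3 WT arrays were 10.50, 9.44 and 10.44).

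Of 31 listed phosphatases and nucleases 5 were measured, 2 lower and 1 higher. RNS2, a ribonuclease gene that frees Pi from RNA, had 8.26, 8.45 and 8.50 in phr1 phl1 and 9.97, 10.12 and 9.88 in WT (−1.59, SE 0.143, adjusted p = 3.08e-08). AT1G13750 had 7.72, 8.08 and 7.36 in phr1 phl1 and 9.85, 10.05 and 10.05 in WT (−2.26, SE 0.211), and AT1G25230 went the other way with 2.57 (SE 0.366). PAP26, a major acid phosphatase gene, had 10.07, 10.45 and 10.44 in phr1 phl1 and 10.62 in each WT array (−0.30, adjusted p = 0.121). Of 4 measured transcription factor genes of 6 on the Pi list, ZAT6, a zinc finger factor, was lower, with 5.82, 5.16 and 4.92 in phr1 phl1 and 7.29, 7.93 and 7.93 in WT (−2.41, SE 0.390). WRKY6 and WRKY75 had overlapping groups and fold changes of −0.29 and 0.01.

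Nitrogen genes were measured at 3 of 19 loci and 2 were lower. AT3G25790 had 3.91, 4.2 and 3.77 in phr1 phl1 and 7.45, 6.76 and 8.36 in WT (−3.57, SE 0.298, adjusted p = 1.20e-08). AT1G68670 had −1.07 and lost its call without WT replicate 1, WT replicate 3 or phr1 phl1 replicate 3. AT1G25550 had 7.97, 7.91 and 7.02 in phr1 phl1 and 8.94, 7.39 and 9.12 in WT, overlapping groups and a fold change of −0.84 that became −1.39 (adjusted p = 8.57e-03) without WT replicate 2.

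Of 17 listed genes of senescence and autophagy 10 were measured, 2 lower and 1 higher. The ATG8 proteins that coat autophagosomes did not move together. ATG8H had 5.21, 4.98 and 4.84 in phr1 phl1 and 7.61, 6.43 and 7.55 in WT (−2.19, SE 0.287), and ATG8E had 7.79, 7.51 and 7.56 in phr1 phl1 and 6.25, 6.38 and 5.44 in WT (1.59, SE 0.316). APG8A (ATG8A) had −0.84 (adjusted p = 5.31e-03), and ATG8B 0.07 with overlapping groups. ACD1, the oxygenase gene that opens the chlorophyll ring during breakdown, had 7.10, 7.12 and 7.08 in phr1 phl1 and 8.80, 8.27 and 8.92 in WT (−1.56, SE 0.169, adjusted p = 3.39e-07).

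Growth genes were also mixed. Among 5 measured genes of 16 for expansins and wall remodelling, EXPA8 was higher, with 4.99, 5.03 and 6.80 in phr1 phl1 and 3.48, 4.01 and 3.46 in WT (1.96, SE 0.383), and EXPA16 was lower, with 7.15, 7.32 and 6.89 in phr1 phl1 and 8.59, 8.06 and 8.52 in WT (−1.27, SE 0.484, adjusted p = 0.0456). The EXPA16 call was lost when any 1 of the phr1 phl1 or WT arrays at −Pi other than WT shoot replicate 2 was left out. Among 3 measured gibberellin and brassinosteroid genes of 16, BEE2, a transcription factor gene that brassinosteroid induces, had 6.94, 7.28 and 5.74 in phr1 phl1 and 4.31, 3.38 and 4.62 in WT (2.55, SE 0.506). ROT3, a cytochrome P450 gene of brassinosteroid synthesis, had 5.09, 5.50 and 4.97 in phr1 phl1 and 6.43, 6.26 and 6.44 in WT (−1.19, SE 0.123), and GID1A, a gibberellin receptor gene, had −0.97, and −1.01 (adjusted p = 2.83e-03) without WT replicate 2. ARR15, the second cytokinin regulator measured beside RR16, had 0.43 (adjusted p = 0.0241).

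The other lists had 1 to 3 measured members and no call at more than 2-fold, apart from GRX480 on the salicylate list. None of the 15 listed aquaporins had a matched probe set. IAA29 of the auxin list had 0.41 (adjusted p = 0.0107) and IAA1 −0.12. GI and CO of the circadian clock had −0.29 and 0.72, OPT3 and BHLH101 of iron and zinc 0.29 and 0.35, AUR1 of the cell cycle −0.16, ERS1 of ethylene −0.08, and NDB2, an alternative NADH dehydrogenase gene, −0.77 (adjusted p = 0.0639). STZ (ZAT10), a stress-induced zinc finger gene, had 8.34, 8.41 and 7.70 in phr1 phl1 and 9.61, 9.92 and 9.53 in WT without overlap (−1.54, SE 0.736, adjusted p = 0.117), and it passed when the root arrays were left out of the fit.

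**Figure D3:**
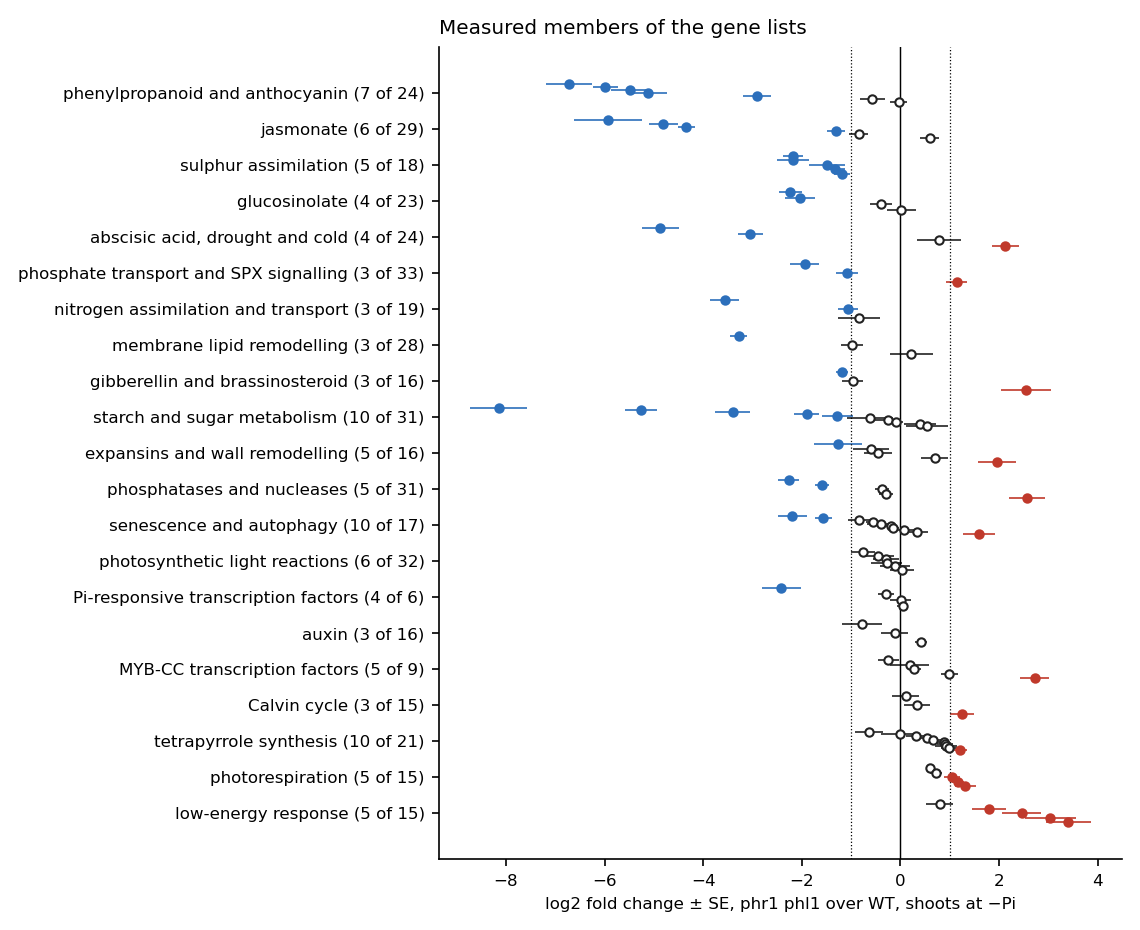
Log2 fold change of phr1 phl1 over WT in starved shoots (points) with its standard error (lines) for the measured members of the lists with 3 or more, where each list's label gives measured of listed genes. Red marks members called higher, blue lower and open circles neither, and the dotted lines mark 2-fold: the 5 sulphur genes all lie below −1, and of the 5 low-energy genes 4 lie above 1.

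Families that can be read from gene names were counted after the values had been seen. UDP-glycosyltransferases (UGTs) attach sugars to hormones and secondary metabolites. Of 51 measured, 12 were lower (23.5%) and 2 higher (3.92%), against 8.2% and 8.24% of all probe sets, with a median of −0.28. UGT76E12 had 2.97, 3.29 and 2.94 in phr1 phl1 and 7.95, 8.02 and 8.01 in WT (−4.92, SE 0.165). UGT78D1, a flavonol glycosyltransferase gene, had 6.27, 6.03 and 6.37 in phr1 phl1 and 9.83, 9.01 and 10.12 in WT (−3.43, SE 0.301). UGT76C2, a cytokinin glucosyltransferase gene, was one of the 2 that rose, with 7.53, 7.95 and 7.10 in phr1 phl1 and 5.23, 4.59 and 5.43 in WT (2.44, SE 0.253). Their groups did not overlap, as in most called probe sets (1812 of 1875 higher, 1828 of 1866 lower).

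SWEET proteins let sugars pass through membranes, and of 16 genes measured 5 were lower (31.2%) and 1 higher (6.25%). SWEET13, of the sucrose-transporting clade, had 4.00, 3.80 and 3.69 in phr1 phl1 and 8.53, 8.90 and 8.85 in WT (−4.93, SE 0.344, adjusted p = 1.12e-09). SWEET4 had 5.05, 5.57 and 4.70 in phr1 phl1 and 7.77, 8.55 and 7.69 in WT (−2.90, SE 0.248). SWEET10, SWEET17 and SWEET16 had −1.91, −1.38 and −1.15. SWEET2, a vacuolar glucose carrier gene, had 6.50, 5.99 and 6.92 in phr1 phl1 and 4.28, 4.93 and 4.08 in WT (2.04, SE 0.306), and SWEET11, a phloem loading gene, had 0.54 (adjusted p = 0.373). Of 46 cytochrome P450 probe sets 7 were lower (15.2%) and 1 higher (2.17%). The furthest was HPL1 (CYP74B2), the hydroperoxide lyase of leaf volatiles, with 3.93, 3.85 and 4.03 in phr1 phl1 and 7.52, 7.42 and 8.01 in WT (−3.72, SE 0.224). Of 13 glutathione S-transferase genes 4 were lower (30.8%) and none higher, with GSTU20 at −3.18 (SE 0.407). Of 10 WRKY genes 1 was lower (10%), and of 12 numbered MYB genes 1 (8.33%), shares near the 8.2% of all probe sets called lower.

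Many transcripts of the organelle genomes were higher in phr1 phl1, but those of the chloroplast rested in part on 1 WT array. Over 69 chloroplast-encoded probe sets the array medians were 10.29, 10.03 and 9.75 in phr1 phl1 and 9.75, 7.21 and 9.90 in WT, where WT replicate 2 was the low one. Those of phr1 were 10.14, 8.88 and 10.50. With all arrays 20 were higher (29%) and 0 lower, with a median fold change of 1.19. Without WT replicate 2 there were 8 higher and 0 lower, with a median of 0.39. petD, of the cytochrome b6f complex, was high in every mutant array (7.96, 8.35 and 8.40 in phr1 phl1, 4.99, 4.36 and 5.43 in WT), with a fold change of 3.31 and, without WT replicate 2, of 3.03. rbcL, the large subunit of Rubisco, had 12.47, 11.61 and 12.42 in phr1 phl1 and 9.98, 7.03 and 9.74 in WT, with 3.25 and, without that replicate, 2.31. These 2 genes were chosen after their values were seen.

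Mitochondria-encoded transcripts did not rest on that array. Over 23 probe sets the medians were 6.81, 6.46 and 6.99 in phr1 phl1 and 5.37, 5.82 and 5.55 in WT, without overlap, and 11 were higher (47.8%) and 1 lower, with a median of 0.91. Without WT replicate 2 the counts were 12 and 1 and the median 1.0. The rise was not particular to these shoots. The medians of phr1 shoots were 6.19, 6.73 and 6.36, also above WT. In phr1 phl1 roots 13 of the 23 were higher and 0 lower than in WT roots, with a median of 1.08, and 1 had an organ difference that was called. One probe set of nad1, a subunit gene of respiratory complex I, had 8.51, 9.03 and 8.75 in phr1 phl1 and 5.21, 6.19 and 5.55 in WT (3.11, SE 0.266, adjusted p = 1.61e-08), and the other 3 nad1 probe sets called had 1.70 to 2.34. cox1, of cytochrome oxidase, had 10.09, 10.07 and 10.27 in phr1 phl1 and 8.58, 8.67 and 8.27 in WT (1.63, SE 0.205). matR, a maturase gene, was the one that fell, with 4.56, 5.0 and 5.41 in phr1 phl1 and 6.34, 5.94 and 6.59 in WT (−1.30, SE 0.252). The 23 probe sets belong to 16 gene names, so some share a gene. The 3′ minus 5′ signal of GAPDH also differed between the groups (1.14 to 1.59 in phr1 phl1, 0.72 to 1.07 in WT), and its part in the organelle values was not tested.

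**Figure D4:**
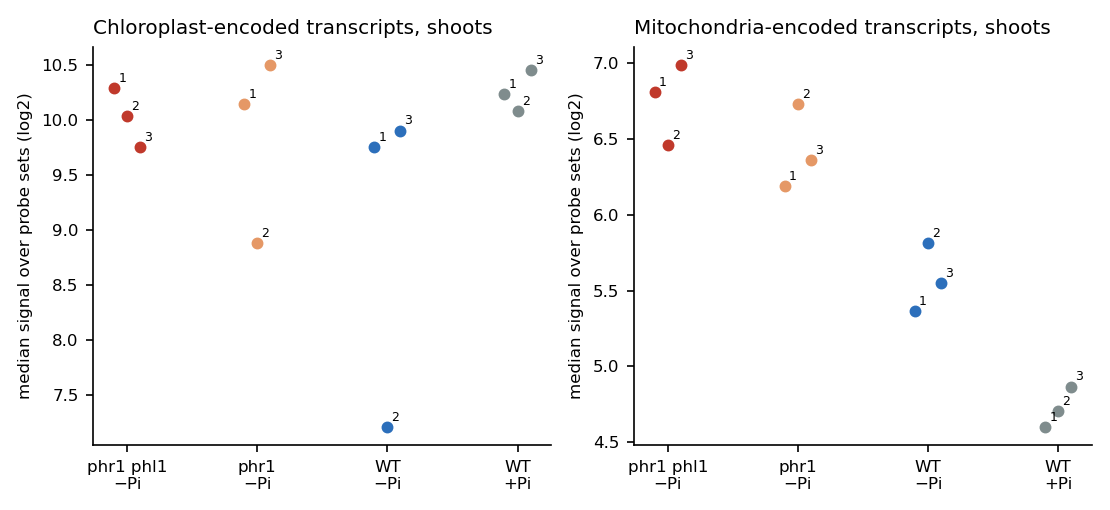
Median RMA log2 signal over the 69 chloroplast-encoded (left) and the 23 mitochondria-encoded (right) probe sets in each shoot array, by genotype and Pi, with the replicate number beside each point. The chloroplast median of WT −Pi replicate 2, 7.21, is far below every other array, and the mitochondrial medians of phr1 phl1, 6.46 to 6.99, lie above those of WT −Pi, 5.37 to 5.82, and WT +Pi, 4.6 to 4.87.

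Whether the same genotype difference occurred in roots was tested with the root arrays, which share none of the 6 shoot arrays. The paper collected RNA from shoots and roots separately, so shoot and root arrays of the same replicate number may come from the same plants. The model took all arrays as independent, and a pairing of shoots with roots was not tested. In roots 784 probe sets were higher in phr1 phl1 than in WT (3.45%) and 498 lower (2.19%). The difference between the shoot effect and the root effect was above 0 for 1366 probe sets (6.01%) and below 0 for 1762 (7.75%) by the same call rule, with a median standard error of 0.224. Of the 1366, 1068 were called higher in shoots and 118 called lower in roots. Of the 1762, 1177 were called lower in shoots and 388 called higher in roots, and 48 were lower in shoots and higher in roots.

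The 12 largest rises and the 12 largest falls were chosen by their shoot effect, which is itself part of the organ difference. Counts of them with a shoot effect beyond the root effect therefore follow in part from the choice. Of the 12 largest rises in shoots 3 were also called higher in roots and 11 had a shoot effect above the root effect. THI2.2 averaged 4.99 in phr1 phl1 roots and 4.79 in WT roots, and the organ difference was 4.35 (adjusted p = 3.36e-07). AT3G62950 averaged 2.96 in both kinds of root, with an organ difference of 4.13. PDF1.4 rose in roots too, by 2.11 (adjusted p = 2.70e-04). Of the 12 largest falls 4 were also called lower in roots, AT5G17340 (−6.50), OCT1 (−7.98), EXLB1 (−3.59) and BAM5 (−2.66), and 10 had a shoot effect below the root effect. AT5G17340 had an organ difference of −0.83, within 2-fold. OCT1 had one above 0, 1.49 (adjusted p = 4.03e-03), and it averaged 3.37 in phr1 phl1 roots and 11.35 in WT roots.

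Among named genes DFR had the organ difference furthest below 0, −7.00 (SE 0.650, adjusted p = 2.82e-07), and averaged 3.45 in phr1 phl1 roots and 3.17 in WT roots, near the floor in both. The other 4 lower genes of the anthocyanin list had root effects from −0.22 to 0.35. MGL, the methionine gamma-lyase gene of methionine breakdown, went opposite ways. It had 5.73, 5.90 and 5.44 in phr1 phl1 shoots and 8.78, 9.07 and 9.02 in WT shoots (−3.27, SE 0.230), and averaged 7.56 in phr1 phl1 roots and 4.40 in WT roots (3.15, adjusted p = 6.29e-09). AT4G39675 differed in roots, with averages of 10.85 in phr1 phl1 and 4.12 in WT, while in shoots it had 3.84, 3.75 and 4.07 in phr1 phl1 and 3.15, 3.51 and 3.07 in WT (0.64, adjusted p = 0.0122). MGD2 and SPX1 fell further in roots than in shoots. The root effect was −4.30 for MGD2 and −3.57 for SPX1, with organ differences of 1.02 (adjusted p = 4.31e-03) and 1.63 (adjusted p = 6.89e-03). COR15A and COR15B had root effects of −0.23 and −0.15 and organ differences of −4.64 and −2.90.

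Markers of the shoot moved with the root comparison. The summed signal of the 4 measured shoot markers was 27.5 to 30.3 in phr1 phl1 roots and 21.2 to 23.6 in WT roots, which did not overlap, and 41 of the 69 chloroplast-encoded probe sets were higher in phr1 phl1 roots. SWEET11, TGG2 and HPR had root effects of 4.95, 2.95 and 2.61. Their part in the organ differences was not tested.

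**Figure D5:**
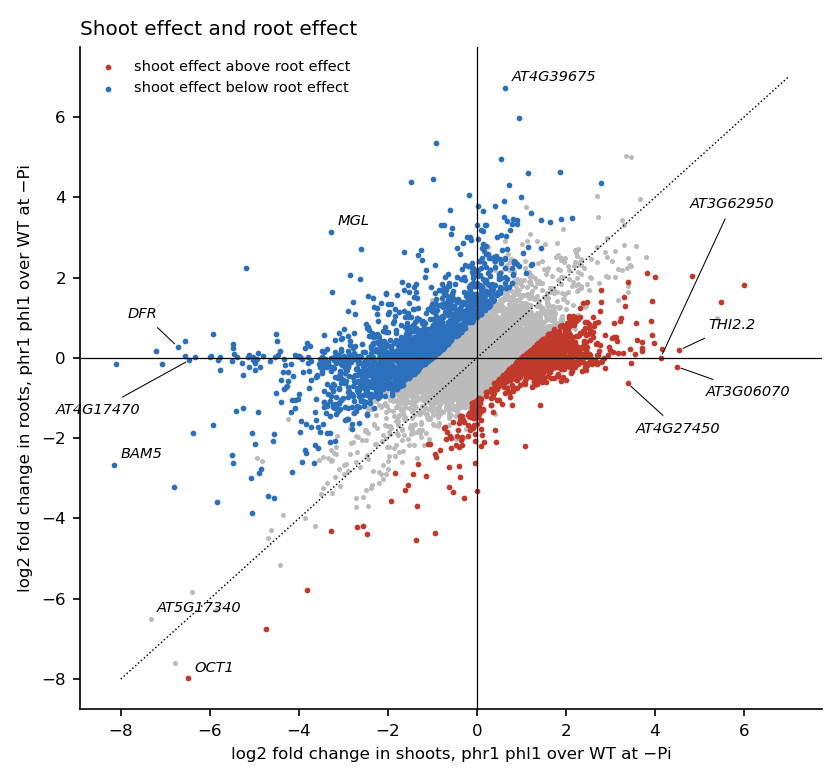
Each point is 1 of the 22746 probe sets, with the log2 fold change of phr1 phl1 over WT at −Pi in shoots on the x axis and in roots on the y axis, and the dotted line marks equal effects. Red points had a shoot effect above the root effect (1366) and blue points one below it (1762). Many lie along the horizontal line of no root effect, while AT5G17340 and OCT1 lie near the diagonal and MGL is high in roots and low in shoots.

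Values of the same genes in the other shoot comparisons are given beside these, with the caution that each comparison shares 1 of its groups with the main one, so the fold changes are not independent. Over the 12 largest falls, the fold change of WT at −Pi over WT at +Pi was 3.01 to 7.45, and that of phr1 over WT at −Pi was −7.84 to −3.92. Both of these use the WT arrays at −Pi. Setting phr1 phl1 at −Pi against WT at +Pi uses the phr1 phl1 arrays and differs in both genotype and Pi. BAM5 averaged 3.31 in phr1 phl1 at −Pi and 4.96 in WT at +Pi, OCT1 3.53 and 3.34, AT5G17340 3.39 and 3.27, and EXLB1 4.49 and 7.33. EXLB1 was lower in the starved mutant than in fed WT by this contrast (−2.84, adjusted p = 6.57e-07), and so was BAM5 (−1.65, adjusted p = 0.0417). OCT1 had 0.18 (adjusted p = 0.686) and AT5G17340 0.12 (adjusted p = 0.691), which did not pass.

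Over the 12 largest rises, the fold change of WT at −Pi over WT at +Pi ran from −3.25 to −0.37 and that of phr1 over WT at −Pi from 0.54 to 4.31. THI2.2 averaged 9.99 in phr1 phl1 at −Pi and 5.90 in WT at +Pi, AT4G15680 9.58 and 6.24, PDF1.4 8.28 and 5.16, AT3G62950 7.29 and 4.03, BZO2H3 8.49 and 7.55, and AT5G62360 9.12 and 8.39. THI2.2 was higher in the starved mutant than in fed WT by 4.09 (adjusted p = 8.86e-09), AT4G15680 by 3.34 (adjusted p = 4.01e-08), AT3G62950 by 3.26 (adjusted p = 3.36e-08) and PDF1.4 by 3.11 (adjusted p = 2.53e-06). BZO2H3 and AT5G62360 had 0.94 (adjusted p = 0.0972) and 0.74 (adjusted p = 0.364), which did not pass.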

How the data were processed

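Shoots and roots of Arabidopsis seedlings were processed separately, and total RNA was isolated with an RNeasy kit. Biotin-labelled cRNA was hybridised to ATH1 arrays, 1 array for each of 24 RNA samples. The authors made the deposited values with RMA (background correction, normalization between arrays and summarisation), in log2 units with 1 signal per probe set. Low signals therefore have a floor, and a fold change is a difference of log2 signals. The number of arrays limits the precision.

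After 64 control probe sets had been left out, 1 model with 8 group means was fitted to all 24 arrays with limma 3.58.1 in R 4.3.3 (16 residual degrees of freedom). P-values were adjusted by the Benjamini-Hochberg method over 22746 probe sets, and a probe set counted as changed at an adjusted p under 0.05 and an absolute log2 difference over 1. All adjusted p-values given are from this limma fit unless another setting is named. The procedure was tested on simulated data. The organ difference was the contrast of the shoot effect minus the root effect in the same model, which took shoot and root arrays as independent.

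Probe sets were named through the platform annotation (13513) and the study's supplementary list (690), which gave 14203 with 1 gene, while 503 had several genes and 8040 stayed unnamed here. Named genes were the 12 largest rises and falls without overlap, from each list at most 4 that changed, 2 that went against its majority and 2 well known ones that did not pass, the MYB-CC genes, and the 4 largest organ differences each way. The members and lists were chosen with earlier results of these data known. Families, organelle transcripts and the genes said to be named after their values were seen were chosen later still. Promoter sequences were not analysed here. Alternatives were a replicate block, fewer arrays in the fit, a filter on dim probe sets, no organelle probe sets, other scalings, variance models and thresholds, array weights and each array left out in turn.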

Additional observations from a re-analysis of the deposited data

Results flagged for a closer look

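The phr1 phl1 effect in shoots differed from that in roots for 8 genes named for the size of that difference, by limma's test of the difference itself (3 arrays in each of 4 groups). Below 0 lay DFR at −7.00 (adjusted p = 2.82e-07), MGL at −6.42 (adjusted p = 8.28e-11), AT4G17470 at −6.405 (adjusted p = 1.61e-07) and AT4G39675 at −6.09 (adjusted p = 1.81e-11). DFR and AT4G17470 fell in shoots and did not pass in roots, MGL fell in shoots and rose in roots, and AT4G39675 rose in roots. Above 0 lay AT3G06070 at 4.72 (adjusted p = 1.41e-04), THI2.2 at 4.355 (adjusted p = 3.36e-07), AT3G62950 at 4.13 (adjusted p = 1.60e-07) and AT4G27450 at 4.02 (adjusted p = 4.25e-04). These 4 rose in shoots and did not pass in roots. No test for outlying values was run within groups of 3 arrays, although each array of the 4 groups was left out in turn.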

How the results depend on the processing

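Looser thresholds moved the counts by over 1.5 times, except for the organ difference below 0 with no fold limit (2545 against 1762). At 1.5-fold and an adjusted p under 0.1, 3767 probe sets were higher and 3075 lower in phr1 phl1 shoots, and the organ difference was above 0 for 2998 and below 0 for 2766. With an adjusted p under 0.05 and no fold limit the counts were 4682, 3725, 2867 and 2545. Leaving out 1 array at a time gave 1791 to 2014 higher, 1797 to 1963 lower, 1293 to 1497 above 0 and 1647 to 1845 below 0. Without WT shoot replicate 2, 1598 of the 1875 higher and 1714 of the 1866 lower probe sets were called again. With the replicate number as a block the counts were 1865, 1868, 1359 and 1768, and no named gene changed its call. The deviations of phr1 phl1 and WT shoots of the same number correlated at 0.47, −0.40 and −0.50, so the numbers gave no steady pairing. Those of phr1 phl1 replicate 3 and WT replicate 2 correlated at 0.62, and of phr1 phl1 replicate 2 and WT replicate 3 at 0.41. The remaining pairs ran from −0.48 to 0.25. A batch shared under different numbers was not tested, and the block by number would not remove it. Under all other settings run, each of these 4 totals stayed within 1.5 times its main value. No named gene reversed its direction. Of 71 named genes called, 5 lost the call when 1 array was left out (EXPA16, AT1G68670, HPR, AT1G04770 and G3Pp4). The 12 shoot arrays alone lost EXPA16 and gained STZ, the 6 arrays alone lost AT1G04770 and gained STZ, and array weights lost G3Pp4 and gained AT1G25550 and PMEAMT. The cause of these changes was not tested. The 2 alternatives for a promoter motif were not run.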
